A study of Mus musculus with 21 samples.

Results

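Chrna4, Chrna5, Chrna6, Chrna7, Chrnb2, Chrnb3, Chrnb4, Chrm1, Chrm2 and Chrm3 encode nicotinic and muscarinic acetylcholine receptors of neurons. They were taken from the table of counts by gene symbol, and all 10 were found among its 21878 lines. The hair cell subunits Chrna9 and Chrna10 were left out of the 10. The genes were proposed with measured values of these data in view, so their levels and their order are descriptions.

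The libraries hold polyadenylated RNA of spiral ganglion neurons, the afferent neurons of hearing, from mice at postnatal day 7. Each library was made by Smart-seq2 from about 50 neurons drawn into a micropipette. The mice received an adeno-associated virus with 1 of 3 inserts. The DN-HCN2 virus carried a site-mutated, dominant-negative HCN2 channel and gave 3 libraries from the base of the cochlea and 4 from the apex. The truncated SK3 virus carried a shortened SK3 channel with a dominant-negative action and gave 3 libraries from each region. The control virus carried EGFP and gave 4 libraries from each region. Every group was therefore infected with a virus of this kind, and the labels name neither the animals behind a library nor the share of neurons infected. P-values measure the spread between libraries, which may be partly technical.

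Nicotinic receptors are cation channels opened by acetylcholine and built from alpha and beta subunits. Chrna4 with Chrnb2 forms the most common heteromeric receptor of the mammalian brain, Chrna7 forms receptors of a single subunit, and Chrnb4 pairs with Chrna3 in autonomic ganglia. Muscarinic receptors act through G proteins, those of Chrm1 and Chrm3 through Gq and that of Chrm2 through Gi/o. In the cochlea, efferent fibres from the brainstem release acetylcholine onto hair cells and onto the dendrites of spiral ganglion neurons.

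Chrna4 and Chrnb2 carry most of the receptor counts, and Chrna4, Chrnb4 and Chrna7 are the genes that passed a test below, so the start regions of these 4 genes are shown. Each stretch runs from 250 bases before to 50 bases after the RefSeq start on GRCm38.p6, 5′ to 3′ on the strand of the gene. RefSeq promoters matched 7 of the 10 genes, and the Chrna4 window lies inside the span that GENCODE gives the gene. The windows are chr2:181039128-181039427 (minus strand) for Chrna4, chr3:89764583-89764882 (minus strand) for Chrnb2, chr7:63212477-63212776 (minus strand) for Chrna7 and chr9:55048495-55048794 (minus strand) for Chrnb4. Capitals mark matches to GGGCGG, the core of the GC box, and to CACGTG, an E-box, on either strand.
Chrna4: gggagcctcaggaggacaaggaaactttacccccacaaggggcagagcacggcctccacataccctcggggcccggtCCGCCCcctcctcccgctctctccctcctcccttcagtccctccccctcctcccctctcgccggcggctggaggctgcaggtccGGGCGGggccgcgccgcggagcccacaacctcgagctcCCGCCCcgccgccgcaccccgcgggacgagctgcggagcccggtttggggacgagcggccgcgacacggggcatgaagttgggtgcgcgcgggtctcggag
Chrnb2: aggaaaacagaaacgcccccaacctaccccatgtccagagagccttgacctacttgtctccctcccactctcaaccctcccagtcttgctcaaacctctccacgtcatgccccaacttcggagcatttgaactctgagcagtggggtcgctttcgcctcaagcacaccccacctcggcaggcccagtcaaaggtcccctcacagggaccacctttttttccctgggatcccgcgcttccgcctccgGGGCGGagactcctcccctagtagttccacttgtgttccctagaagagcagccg
Chrna7: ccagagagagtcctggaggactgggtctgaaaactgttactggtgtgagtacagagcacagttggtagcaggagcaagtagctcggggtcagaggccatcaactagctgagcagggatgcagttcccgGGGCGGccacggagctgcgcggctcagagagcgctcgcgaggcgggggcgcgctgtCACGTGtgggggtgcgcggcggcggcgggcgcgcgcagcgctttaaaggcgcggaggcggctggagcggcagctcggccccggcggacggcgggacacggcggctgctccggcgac
Chrnb4: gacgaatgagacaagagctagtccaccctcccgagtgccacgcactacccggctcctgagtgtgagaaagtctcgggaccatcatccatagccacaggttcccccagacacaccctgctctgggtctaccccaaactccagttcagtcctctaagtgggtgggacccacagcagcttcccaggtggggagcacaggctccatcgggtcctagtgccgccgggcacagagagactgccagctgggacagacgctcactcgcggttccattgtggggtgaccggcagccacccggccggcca

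The Chrna4 window had 3 matches to GGGCGG, a GC content of 74.3% and 33 CpG dinucleotides. The Chrnb2 window had 1 match, a GC content of 59.0% and 12 CpG dinucleotides. The Chrna7 window had 1 match to GGGCGG and 1 to CACGTG, and the Chrnb4 window had neither. Of 32851 RefSeq promoters of the same length, 35.7% held GGGCGG and 7.15% held CACGTG, and the median promoter had a GC content of 52.7% and 7 CpG dinucleotides. The TATA box core TATAAA, held by 13.6% of all promoters, had no match in the 4 windows on either strand. Neither had the CCAAT box (37.4% of all promoters) or the cyclic AMP response element TGACGTCA (1.79%). The matches do not overlap one another. A match is a description of letters and not a bound site.

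Total counts ranged from 10411634 to 15138780 per library. Markers of spiral ganglion neurons summed to 8760 to 18200 CPM, and Tubb3, Nefl, Snap25 and Slc17a7 were detected in all 21 libraries. Other cells were also present. Schwann and satellite glial markers summed to 10700 to 47200 CPM. Hair cell markers summed to 139 to 211 CPM in base libraries and to 166 to 1650 CPM in apex libraries, and supporting cell markers to 121 to 2450 CPM and 588 to 10300 CPM. Macrophage markers exceeded 1000 CPM in 2 libraries, DN-HCN2 base 2 and DN-HCN2 base 3. Oligodendrocyte markers exceeded 500 CPM in control base replicates 1, 3 and 4 and in truncated SK3 base replicate 1. Fits without the oligodendrocyte-rich libraries keep only replicate 2 of control base. Those without the macrophage-rich libraries keep only replicate 1 of DN-HCN2 base. Those without libraries over 500 CPM of hair cell markers keep only replicate 1 of truncated SK3 apex. A call lost in such fits cannot be told apart from the loss of libraries. In such pooled samples, fewer cells of a type and less RNA per cell cannot be told apart.

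Of the 10 receptor genes, Chrnb2 and Chrna4 were the only ones with counts in all 21 libraries. Levels are given as CPM, counts per 1000000 of the TMM-scaled library total. Per kilobase of the longest transcript, Chrnb2 averaged 16.7 CPM over all libraries and Chrna4 averaged 7.21, and Chrnb2 was above Chrna4 in 20 of the 21 libraries. Chrnb4 was next at 0.666, followed by Chrna7 at 0.208, Chrm1 at 0.157, Chrnb3 at 0.0850, Chrna6 at 0.0624, Chrm3 at 0.0325, Chrna5 at 0.0146 and Chrm2 at 0.00466 CPM per kilobase. From Chrnb4 downward these means rest on few libraries, and neighbours in the order were not separated by their spread. The order of Chrna7 and Chrm1, and that of Chrnb3 and Chrna6, turned round when length was counted over all annotated exons. Chrna4 and Chrnb2 together held at least 86.5% of the summed CPM of the 10 genes in every library, and that sum ran from 78.4 to 217 CPM.

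The ligand-binding subunit gene Chrna4 (chromosome 2, 181018380 to 181043546, minus strand; all gene positions are on GRCm38 from GENCODE M21) was lower in the base than in the apex under every virus. In DN-HCN2 base its levels were 12.65, 30.58 and 16.51 CPM, against 54.93, 97.36, 64.45 and 49.82 CPM in DN-HCN2 apex. In truncated SK3 base they were 10.71, 8.315 and 12.96 CPM, against 30.9, 27.15 and 47.64 CPM in truncated SK3 apex. In control base they were 14.9, 4.028, 9.974 and 14.07 CPM, against 60.3, 34.19, 54.08 and 35.58 CPM in control apex. Base and apex did not overlap within any of the 3 conditions. Over all conditions the 10 base libraries had a median of 12.8 CPM and the 11 apex libraries a median of 49.8 CPM, and only DN-HCN2 base replicate 2 reached into the apex range.

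Averaged over the 3 conditions, Chrna4 fell in the base by 1.86 on the log2 scale (SE 0.232, edgeR quasi-likelihood test, adjusted p = 0.000481). This comparison called 173 of 14968 tested genes, or 1.16%, with 0.581% called lower, and the receptor genes called in it were Chrna4 and Chrnb4, 2 of the 6 that passed the filter on low counts. The log2 differences of the group means, base over apex, were -1.74 under DN-HCN2, -1.72 under truncated SK3 and -2.10 in control. The regional difference did not pass the test of an interaction, at 0.36 (SE 0.524, edgeR adjusted p = 0.947) for DN-HCN2, where it turned to -0.07 without DN-HCN2 base 2, and 0.38 (SE 0.549, edgeR adjusted p = 1) for truncated SK3. In control alone the fitted difference was -2.10 (SE 0.371, edgeR adjusted p = 0.209). No gene of 14968 (0%) was called there by edgeR. An unadjusted edgeR p under 0.05 was found for 722, no more than that threshold passes when nothing differs. DESeq2 called 83 genes (0.555%) and limma-voom 40 (0.267%), and both called Chrna4, with adjusted p-values of 2.39e-05 and 0.0145. Hair cell and supporting cell markers were also higher in the apex. Without the 5 libraries that had over 500 CPM of hair cell markers, the difference over the 3 conditions was -1.93 (SE 0.275). That cut left truncated SK3 apex with replicate 1 alone. It kept apex libraries of up to 449 CPM of hair cell markers, against at most 211 CPM in base libraries. The part of hair cells and supporting cells in the Chrna4 difference was not tested.

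**Figure D1:**
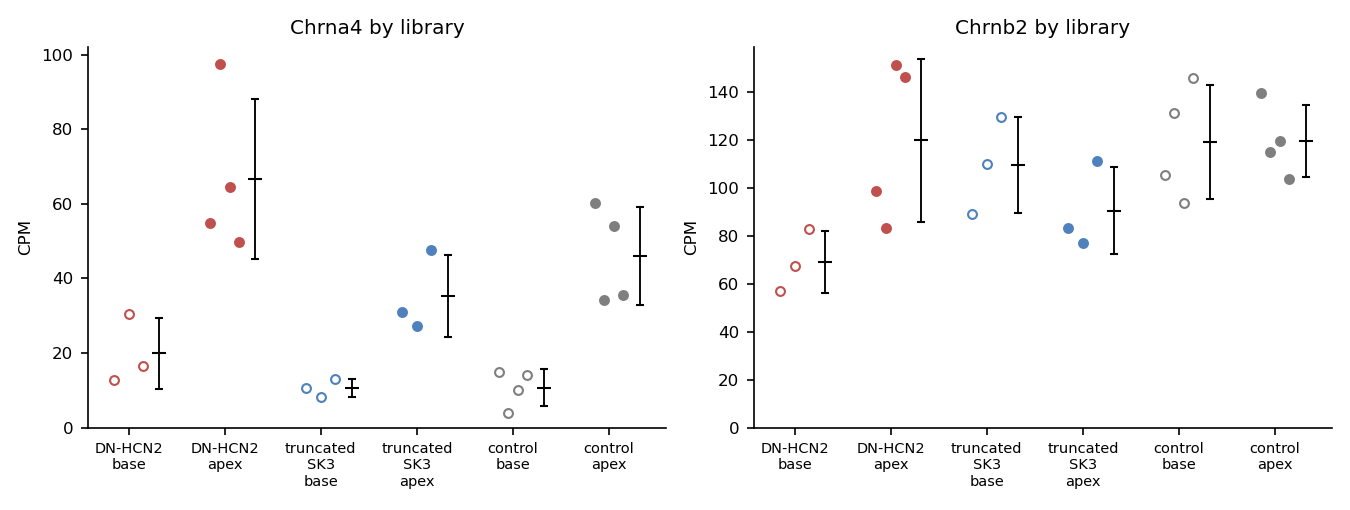
Levels of Chrna4 and Chrnb2 in CPM (vertical axis) in each library, by group (horizontal axis); open circles are base and filled circles apex, and the bars give the mean and SD of 3 or 4 libraries. Chrna4 lies lower in base than in apex under each virus, while the Chrnb2 regions are apart under DN-HCN2 and overlap in control and under truncated SK3.

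The structural subunit gene Chrnb2 (chromosome 3, 89746195 to 89764632, minus strand) was of similar level in the regions of control cochleae. It had 56.98, 67.47 and 82.74 CPM in DN-HCN2 base and 98.69, 83.34, 151.3 and 146.3 CPM in DN-HCN2 apex. It had 89.22, 109.9 and 129.5 CPM in truncated SK3 base and 83.38, 77.13 and 111.1 CPM in truncated SK3 apex. Control base had 105.5, 131.2, 93.91 and 145.9 CPM and control apex 139.6, 115.2, 119.5 and 103.8 CPM. The 3 DN-HCN2 base libraries lay below all 4 control base libraries and below all 4 DN-HCN2 apex libraries. Neuron markers summed to 8760, 10900 and 16500 CPM in DN-HCN2 base, against 12500 to 14100 CPM in control base. Red blood cell markers summed to 776, 2500 and 2320 CPM there, against 7.18 to 1090 CPM, and fibroblast markers to 608 to 3560 CPM, against 419 to 3580 CPM. The part of these differences in the Chrnb2 values was not tested. Between base and apex over the 3 conditions Chrnb2 differed by -0.18 (log2; SE 0.128, edgeR adjusted p = 0.573), with groups overlapping in control and under truncated SK3.

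Against control base, Chrnb2 in DN-HCN2 base differed by -0.79 (log2; SE 0.225), which missed the threshold with edgeR (adjusted p = 0.0671) and passed it with DESeq2 (adjusted p = 0.0259), which called 7.36% of all genes there. After correction for GC content and length, the difference was -0.42 (SE 0.303, edgeR adjusted p = 0.518). In DN-HCN2 apex it was 0.00 (SE 0.204, edgeR adjusted p = 1), and the difference between the regional effects was -0.79 (SE 0.303, edgeR adjusted p = 0.625). Exons of Chrnb2 share 1365 bases with exons of Adar, an RNA-editing gene on the other strand, or 16.3% of the exon bases of Chrnb2. Smart-seq2 does not mark strand, so reads there cannot be told apart. Adar averaged 38.2 CPM in DN-HCN2 base, against 61.3 CPM in control base, with a log2 difference of -0.68 (SE 0.281, edgeR adjusted p = 0.197). Without DN-HCN2 base 2 and 3, the difference was -0.16 for Adar (SE 0.373) and -1.04 for Chrnb2 (SE 0.347). These values rest on DN-HCN2 base replicate 1 alone, which had the lowest Chrnb2 of its group, at 56.98 CPM. The part of Adar reads in the Chrnb2 values was not tested.

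Within a library, the ratio of Chrna4 to Chrnb2, each per kilobase, does not depend on the scaling of the library. It averaged 0.409 ± 0.197 in DN-HCN2 base and 0.873 ± 0.525 in DN-HCN2 apex, 0.138 ± 0.0311 in truncated SK3 base and 0.538 ± 0.0562 in truncated SK3 apex, and 0.131 ± 0.0647 in control base and 0.534 ± 0.103 in control apex (SD, n = 3 or 4). In control and under truncated SK3 the base and apex libraries did not overlap. In DN-HCN2 base the ratios were 0.311, 0.635 and 0.28, all above the highest control base library at 0.198. The highest ratio of all, 1.64, was in DN-HCN2 apex replicate 2, which had the highest Chrna4 and the lowest Chrnb2 of its group. These ratios are described by their ranges and were not tested.

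**Figure D2:**
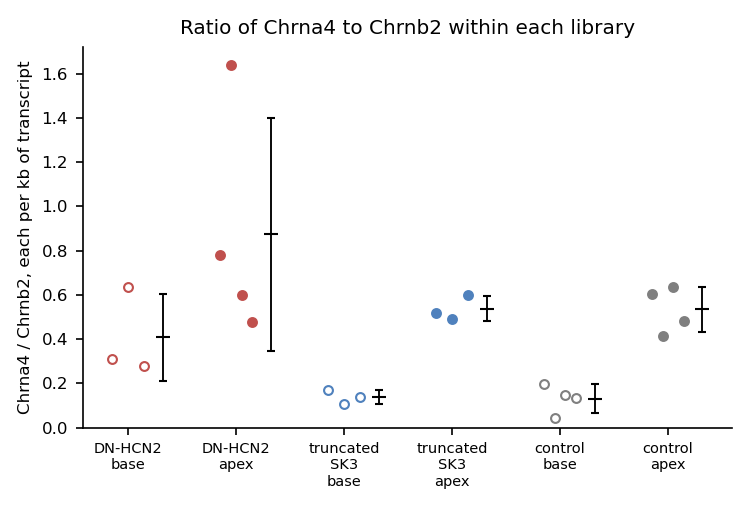
Ratio of Chrna4 to Chrnb2, each as CPM per kilobase of transcript (vertical axis, no unit), in each library by group; open circles are base and filled circles apex, with the mean and SD beside them. Base ratios under truncated SK3 and in control lie between 0.043 and 0.198, and the 3 DN-HCN2 base ratios lie above them.

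Neither main subunit gene passed the test for a virus effect over both regions. Under DN-HCN2, Chrna4 averaged 19.9 ± 9.44 CPM in the base and 66.6 ± 21.4 CPM in the apex, against 10.7 ± 4.97 and 46.0 ± 13.1 CPM in the control regions (SD, n = 3 or 4). The difference over both regions was 0.71 (log2; SE 0.262, edgeR adjusted p = 0.109), and it was 0.40 (SE 0.311, edgeR adjusted p = 0.546) when DN-HCN2 base 2 and 3 were left out and 1.42 (SE 0.347, edgeR adjusted p = 0.107) without the 4 oligodendrocyte-rich libraries. For Chrnb2 it was -0.39 (SE 0.151, edgeR adjusted p = 0.127). Under truncated SK3 the differences from control were -0.20 (SE 0.275, edgeR adjusted p = 0.888) for Chrna4, which was 0.50 without the oligodendrocyte-rich libraries, and -0.26 (SE 0.157, edgeR adjusted p = 0.602) for Chrnb2. Between DN-HCN2 and truncated SK3, Chrna4 differed by 0.91 (SE 0.287, edgeR adjusted p = 0.132). The comparisons with control share the control libraries.

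**Figure D3:**
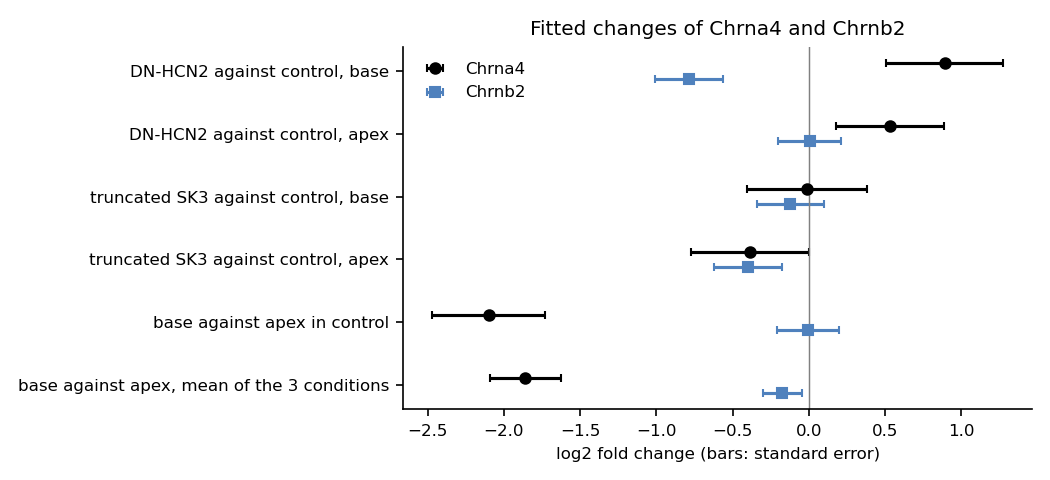
Fitted log2 fold changes (horizontal axis) of Chrna4 and Chrnb2 in 6 comparisons, with bars of 1 standard error from edgeR. The regional differences of Chrna4 lie near -2, those of Chrnb2 near 0, and in DN-HCN2 base the fitted changes lie on opposite sides of 0 (0.89 for Chrna4 and -0.79 for Chrnb2).

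Chrna7 (chromosome 7, 63098692 to 63212569, minus strand), whose product forms receptors with high calcium permeability, was nearly undetected under DN-HCN2. Its counts were 0, 1 and 0 in DN-HCN2 base and 0, 0, 0 and 0 in DN-HCN2 apex. Control base had 4, 13, 19 and 23 counts and control apex 0, 13, 11 and 29. Under truncated SK3, 13, 17 and 0 counts were found in the base and 17, 1 and 0 in the apex. In the base, every control library was above every DN-HCN2 library; in the apex, control replicate 1 was at 0 like the DN-HCN2 libraries.

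Over both regions, DN-HCN2 libraries held 1 count of Chrna7 and control libraries 112. Relative to library totals, control was 94.1 times DN-HCN2, a ratio that rests on 1 DN-HCN2 count. Its 95% counting interval, from 16.5 to 3750, takes reads as independent and leaves out the spread between libraries. In the base, with 1 count under DN-HCN2 and 59 in control, the ratio was 39.6 (95% counting interval 6.84 to 1590). In the apex, DN-HCN2 had 0 counts and control 53, of which 29 were in control replicate 4, and no ratio is given. Chrna7 fell over both regions by the edgeR test (adjusted p = 0.0371), the 1 receptor gene of the 6 tested that did. That comparison called 906 of 14968 genes, or 6.05%, and 3.61% as lower. The call held in 3 of 15 fits that left out 1 library, with adjusted p-values from 0.0341 to 0.082. Leaving out any library other than control apex 1, control base 1 or DN-HCN2 apex 3 ended it. It was also lost with limma-voom (adjusted p = 0.101) and without the macrophage-rich, hair-cell-rich or oligodendrocyte-rich libraries (adjusted p = 0.169, 0.155 and 0.261). Over all 25 alternatives the fitted log2 change, which depends on the prior count, lay on the same side, from -6.72 to -3.63. Between DN-HCN2 and truncated SK3 the edgeR adjusted p was 0.117, in a comparison that called 0.655% of genes and no receptor gene. DESeq2 called Chrna7 there (adjusted p = 0.0483) with 3.61% of genes. In a single library, 0 counts allow up to 0.196 to 0.306 CPM per library. This bound takes reads as independent and leaves out the spread between libraries.

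Chrnb4 (chromosome 9, 55028154 to 55048779, minus strand) was found mainly in the apex. It had 34, 0 and 0 counts in DN-HCN2 base and 347, 83, 12 and 79 in DN-HCN2 apex. Truncated SK3 base had 1, 0 and 0 and truncated SK3 apex 0, 48 and 16. Control base had 0, 0, 1 and 0 and control apex 3, 56, 23 and 51. It was above 0 in 3 of 10 base libraries and in 10 of 11 apex libraries, and in control the regions did not overlap.

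Chrnb4 fell in the base over the 3 conditions (edgeR adjusted p = 0.0305). The call held in 11 of 21 fits that left out 1 library, with adjusted p-values from 0.0081 to 0.0764. The libraries whose removal ended it were control apex 2, control base 1 and 4, DN-HCN2 apex 1, DN-HCN2 base 2 and 3, truncated SK3 apex 2 and all 3 of truncated SK3 base. The call also ended with limma-voom (adjusted p = 0.0663) and with the replicate number as a block (edgeR adjusted p = 0.0569). Such blocks within condition ended it too (edgeR adjusted p = 0.0983). It was also lost without the 5 libraries rich in hair cell markers (log2 change of -1.79, SE 37.5). The same held without DN-HCN2 base 2 and 3 (-4.55) and without the oligodendrocyte-rich libraries (-6.27). The library with most Chrnb4, DN-HCN2 apex replicate 1, also had 549 counts of Chrna3, its partner in autonomic ganglia, against at most 30 in the other 20 libraries. That library had 633 CPM of hair cell markers and 10300 CPM of supporting cell markers, and their part in these counts was not tested. Between DN-HCN2 and control over both regions, Chrnb4 missed the threshold with edgeR (adjusted p = 0.0882) and passed it with DESeq2 (adjusted p = 0.038), which called 11.1% of all genes. In DN-HCN2 base its counts came from replicate 1 alone, and the edgeR adjusted p without that library was 0.855.

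Chrnb3 and Chrna6 are accessory and alpha subunit genes that lie beside each other on chromosome 8 and act together in receptors of dopamine neurons. They had counts in 5 and 3 libraries. Base over apex, Chrnb3 differed by 5.05 over the 3 conditions (log2, SE 1.67) and was not called (edgeR adjusted p = 0.174). Chrnb3 had 63 counts in DN-HCN2 base 1, 24 in truncated SK3 base 2, 23 in control base 4 and 5 and 1 in control apex 4 and 3. Chrna6 had 5 counts in DN-HCN2 base 1, 1 in truncated SK3 base 3 and 48 in control base 4. DN-HCN2 base 1 and control base 4 held counts of both genes. Chrna5, which encodes an accessory subunit, had 9 counts in control base 3 and 2 in control apex 4.

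The muscarinic genes were low throughout. Chrm1, the Gq-coupled receptor gene that is prominent in forebrain neurons, had 60, 16 and 34 counts in truncated SK3 base, against 16, 1, 8 and 0 in control base. It had 27, 1 and 0 in DN-HCN2 base, 20, 6, 0 and 7 in DN-HCN2 apex, 11, 16 and 0 in truncated SK3 apex and 2, 0, 0 and 23 in control apex. In truncated SK3 base it averaged 3.57 ± 2.42 CPM, against 0.502 ± 0.642 CPM in control base (SD, n = 3 and 4), with overlapping libraries and an edgeR adjusted p of 1 there. Chrm3 reached at most 13 counts, in control base 4, and was above 0 in 9 libraries. Chrm2 had 8 counts in control apex 4 and 0 in the other 20 libraries. Chrna6, Chrm3, Chrna5 and Chrm2 did not pass the filter and were not tested.

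**Figure D4:**
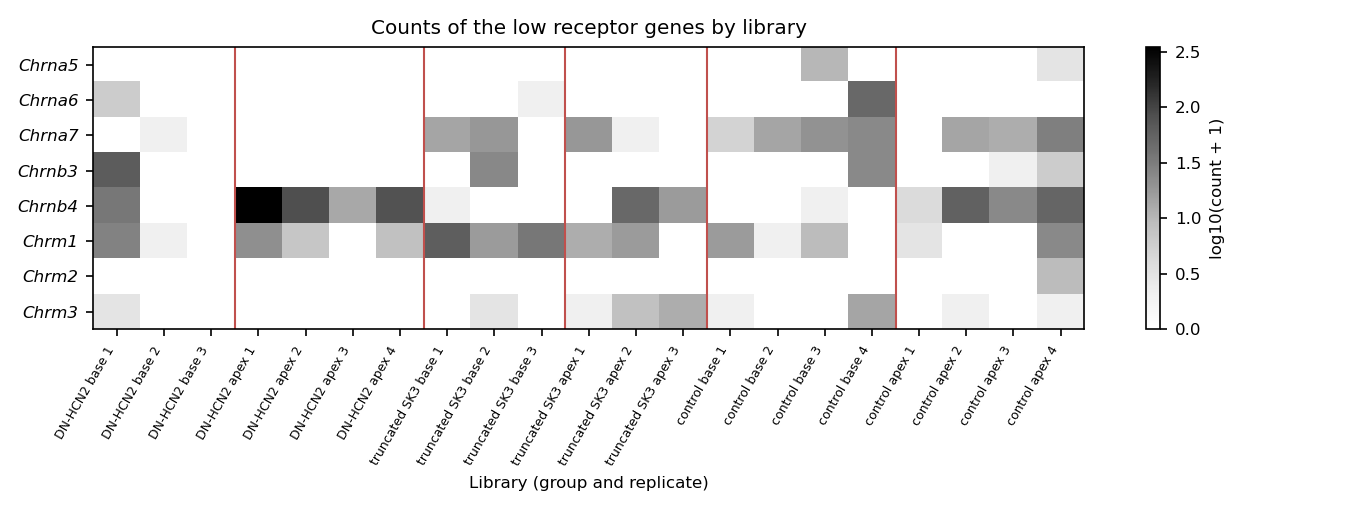
Counts of the 8 receptor genes of low level (rows) in each library (columns, grouped by virus and region), shaded by log10(count + 1). Chrna7 is blank across the DN-HCN2 libraries but for 1 count, and Chrnb4 is dark in most apex columns.

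No other comparison called a receptor gene with edgeR. Of all tested genes, the comparison of DN-HCN2 with control called 2.14% in the base and 0.2% in the apex, and that of truncated SK3 with control called 0.735% over both regions, 0.147% in the base and 0.254% in the apex. The interactions called 0.00668% for DN-HCN2 and 0% for truncated SK3. For the interaction of truncated SK3, edgeR called no gene, DESeq2 called 21 (0.14%) and limma-voom none. An unadjusted edgeR p under 0.05 was found there for 545 genes, no more than that threshold passes when nothing differs.

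The remaining 11 subunit genes were all in the table, and 8 were tested. Chrnb1, a muscle subunit gene, averaged 3.995 CPM in DN-HCN2 base and 1.61 CPM in control base and was not called. Chrnd was at 0 in every library. Chrna9 and Chrna10, which form the receptor of hair cells, reached 611 and 959 counts in DN-HCN2 apex 1 and 428 and 441 counts in control apex 2, both rich in hair cell markers, a list that includes these 2 genes. Over the 3 conditions Chrna10 was called lower in the base (edgeR adjusted p = 0.0276), 1 of 8 beside 1.16% of all genes. The call was lost with limma-voom (adjusted p = 0.34), with the replicate number as a block (edgeR adjusted p = 0.0594) and with such blocks within condition (edgeR adjusted p = 0.167). It was also lost without the hair-cell-rich, macrophage-rich or oligodendrocyte-rich libraries (log2 changes of -2.4, -6.72 and -7.43). Leaving out DN-HCN2 base 2 or 3, truncated SK3 apex 2 or any truncated SK3 base library also ended the call. Its exons share 39.0% of their bases with Art1 on the other strand.

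Among 12 genes for assembly and modulation of nicotinic receptors, 10 were tested. Over both regions, 1 rose and 1 fell under DN-HCN2, where 6.05% of all genes were called, with a median log2 change of -0.04 beside 0.03 over all genes tested. Ric3, a chaperone gene for Chrna7 and other subunits, fell by 0.78 (log2; SE 0.18, edgeR adjusted p = 0.0146). It had 43.25, 21.96 and 27.34 CPM in DN-HCN2 base and 61.53, 71.94, 67.92 and 74.09 CPM in control base. In the apex it had 35.14, 53.95, 52.75 and 50.64 CPM under DN-HCN2 and 63.24, 59.51, 68.51 and 63.38 CPM in control. All 7 DN-HCN2 libraries were below all 8 control libraries, and the call held in 15 of 15 fits that left out 1 library. When DN-HCN2 base 2 and 3 were left out together the change was -0.53 (SE 0.215, edgeR adjusted p = 0.201). The call was also lost after correction for GC content and length (-0.54, adjusted p = 0.0907) and without the hair-cell-rich (-0.74, adjusted p = 0.083) or oligodendrocyte-rich libraries (-0.81, adjusted p = 0.209).

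Tmem35, the older symbol of Tmem35a, encodes NACHO, a chaperone for receptors of Chrna7 and of Chrna4 with Chrnb2. In DN-HCN2 base it had 28.92, 28.82 and 30.73 CPM, against 58.75, 60.7, 57.68 and 52.56 CPM in control base, and the groups were far apart. It fell there by 0.96 (log2, SE 0.228, edgeR adjusted p = 0.032). The call held in none of 7 fits that left out 1 library, whose adjusted p-values ran from 0.0501 to 0.0911 at log2 changes of -0.93 or lower. It was also lost with limma-voom (adjusted p = 0.0756) and with the replicate number as a block (edgeR adjusted p = 0.0597). The fits without macrophage-rich, hair-cell-rich or oligodendrocyte-rich libraries lost it too (-0.961, -0.956 and -1.03). In the apex Tmem35 averaged 67.8 ± 18.1 CPM under DN-HCN2 and 59.99 ± 11.3 CPM in control, a log2 difference of 0.18 (SE 0.205, edgeR adjusted p = 0.826). The effects in base and apex differed by -1.14 (SE 0.306), which missed the threshold (edgeR adjusted p = 0.287). The list had 3 calls in DN-HCN2 base, Ric3 and Tmem35 lower and Ly6e higher, beside 2.14% of all genes, with a median of -0.18 beside 0.03. The call of Ric3 there (-1.16, SE 0.269, edgeR adjusted p = 0.0295) held in 1 of 7 fits that left out 1 library, that without DN-HCN2 base 1. It was also lost after correction for GC content and length (edgeR adjusted p = 0.0793) and with the replicate number as a block (0.0773). With only the compared groups in the fit it was lost too (0.0568). So it was without the macrophage-rich or oligodendrocyte-rich libraries (-0.644 and -1.21).

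Ly6e, whose product belongs to the Ly6 family that includes modulators of nicotinic receptors, and which is also induced by interferon, rose under both constructs. It had 82.69, 80.35 and 122.9 CPM in DN-HCN2 base, against 7.67, 10.67, 19.61 and 11.82 CPM in control base. In the apex it had 88.3, 158, 48.69 and 33.61 CPM under DN-HCN2 and 6.193, 10.65, 10.3 and 16.61 CPM in control. Truncated SK3 libraries had 27.43, 28.5 and 145.4 CPM in the base and 76.43, 27.65 and 228.8 CPM in the apex. Every library with a channel construct was above every control library. The log2 changes over both regions were 2.92 (SE 0.485, edgeR adjusted p = 0.00219) under DN-HCN2 and 2.88 (SE 0.493, edgeR adjusted p = 0.00637) under truncated SK3. Both changes were measured against the same control libraries. Ly6e was the 1 gene of this list called under truncated SK3, beside 0.735% of all genes (list median 0.08 beside 0.01). Both calls held in all 15 and all 14 fits that left out 1 library. Without the 4 libraries rich in oligodendrocyte markers, the log2 changes were 3.03 and 3.18 and the edgeR adjusted p-values 0.161 and 0.369. The call under truncated SK3 was also lost without the hair-cell-rich libraries (2.81, edgeR adjusted p = 0.137).

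**Figure D5:**
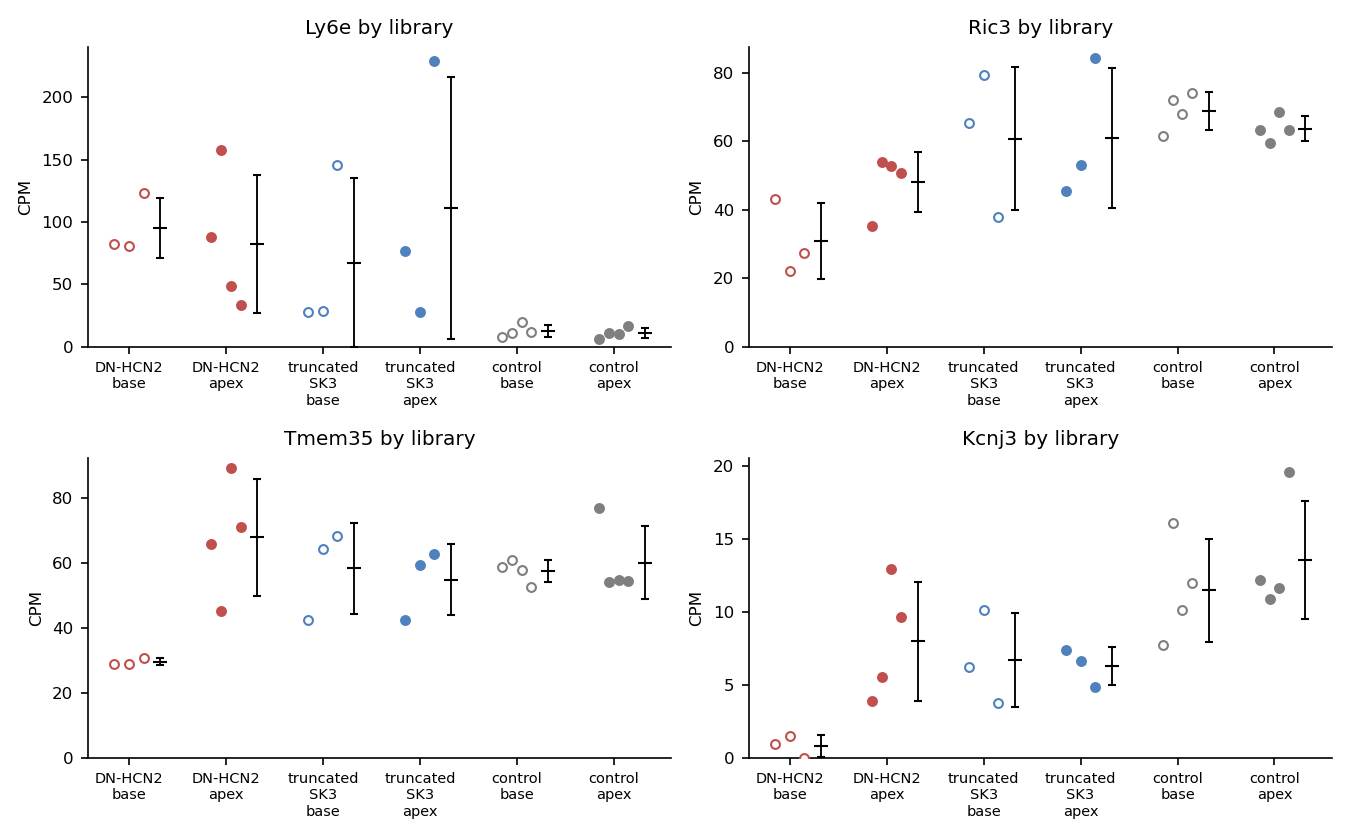
Levels in CPM (vertical axes) of Ly6e, Ric3, Tmem35 and Kcnj3 in each library by group, open circles for base and filled circles for apex, with the mean and SD; an SD bar that would pass below 0 is cut at 0. All 13 libraries with a channel construct lie above the 8 control libraries for Ly6e, and the 3 DN-HCN2 base libraries lie together and low for Tmem35 and Kcnj3.

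Chat, the enzyme that makes acetylcholine, and Slc18a3, its vesicular transporter, were at 0 counts in all 21 libraries. Slc5a7, the choline transporter, had at most 21 counts in a library and was at 0 in 13 of 21. Ache, the enzyme that breaks it down, was high, at 182 ± 56.5 CPM in DN-HCN2 base, 171 ± 33.2 in DN-HCN2 apex, 201 ± 64.9 in truncated SK3 base, 168 ± 15.1 in truncated SK3 apex, 213 ± 43.4 in control base and 215 ± 21.7 CPM in control apex, and it was not called in any comparison. Of the 8 genes in this list 6 were tested. Acly, which supplies acetyl-CoA, fell under DN-HCN2 over both regions by 0.62 (log2; SE 0.146, edgeR adjusted p = 0.0162), 1 of 6 beside 6.05% of all genes. The call was lost after correction for GC content and length (-0.47, adjusted p = 0.101) and without the hair-cell-rich (-0.65, adjusted p = 0.0919) or oligodendrocyte-rich libraries (-0.43, adjusted p = 0.282). The list's median was -0.64 beside 0.03 over all genes.

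Colq, which encodes the collagen tail that anchors acetylcholinesterase, differed by region as Chrna4 did. It had 16.27, 3.707 and 7.522 CPM in DN-HCN2 base, against 32.07, 57.97, 34.59 and 44.89 CPM in DN-HCN2 apex. Truncated SK3 base had 11.32, 13.24 and 17.22 CPM and truncated SK3 apex 44.29, 25.71 and 20.87 CPM. Control base had 15.86, 18.59, 13.71 and 29.06 CPM and control apex 54.57, 34.96, 69.87 and 39.33 CPM. Base and apex did not overlap in any condition. Colq fell in the base by 1.56 (log2; SE 0.239, edgeR adjusted p = 0.00271), and among the alternatives the call was lost without the 4 libraries rich in oligodendrocyte markers (-1.53, adjusted p = 0.159).

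Downstream of Gq, all 15 listed genes were tested. Under DN-HCN2 over both regions 2 were called, beside 6.05% of all genes, and between base and apex 1 was called, beside 1.16%. Under DN-HCN2 over both regions, the protein kinase C gene Prkca fell by 0.82 (log2; SE 0.166, edgeR adjusted p = 0.00665), with 17.4 ± 1.15 and 22.5 ± 4.70 CPM in DN-HCN2 base and apex against 34.9 ± 7.77 and 34.6 ± 5.86 CPM in control. After correction for GC content and length its change was -0.38 (adjusted p = 0.293). Its call was also lost without the macrophage-rich, hair-cell-rich or oligodendrocyte-rich libraries (-0.835, -0.822 and -0.808). Prkcb rose by 0.68 (SE 0.192, edgeR adjusted p = 0.0414). The call held in 3 of 15 fits with 1 library left out, those without control base 2, DN-HCN2 apex 3 and DN-HCN2 base 1. It was lost after the GC and length correction (0.704, edgeR adjusted p = 0.137) and with the replicate number as a block (0.682, edgeR adjusted p = 0.0575). It was also lost without the macrophage-rich, hair-cell-rich or oligodendrocyte-rich libraries (0.473, 0.76 and 0.527). The phospholipase gene Plcb1 fell in the base over the 3 conditions by 0.76 (SE 0.174, edgeR adjusted p = 0.0377). The call held in 5 of 21 fits with 1 library left out. They were those without control base 1, DN-HCN2 apex 1, DN-HCN2 apex 4, DN-HCN2 base 1 and truncated SK3 base 2. It was lost after the GC and length correction (edgeR adjusted p = 0.0654), with replicate blocks within condition (edgeR adjusted p = 0.0657) and with limma-voom (adjusted p = 0.0942). It was also lost without the macrophage-rich, hair-cell-rich or oligodendrocyte-rich libraries (-0.709, -0.803 and -0.761). The list's median under DN-HCN2 was 0.14 beside 0.03.

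Of the 13 genes of Gi/o signalling, 12 were tested. Under DN-HCN2, 3 were called over both regions, beside 6.05% of all genes, and 2 in the base, beside 2.14%. Under truncated SK3, 1 was called over both regions, beside 0.735%. Kcnj3, a subunit of the potassium channel that Gi/o-coupled receptors open, had 0.9374, 1.483 and 0 CPM in DN-HCN2 base, against 7.757, 16.11, 10.11 and 11.96 CPM in control base. In the apex it had 3.919, 5.511, 12.94 and 9.635 CPM under DN-HCN2, against 12.23, 10.88, 11.66 and 19.6 CPM in control, with overlapping libraries. It was called lower in the base (edgeR adjusted p = 0.0161) and over both regions (adjusted p = 0.00898). The call in the base was lost with only the compared groups in the fit (adjusted p = 0.108), with limma-voom (0.0578) and without the macrophage-rich (0.0664) or oligodendrocyte-rich libraries (0.372). That over both regions was lost without the hair-cell-rich (0.0958) or oligodendrocyte-rich libraries (0.109). Exons of Kcnj3 share 31.1% of their bases with a predicted noncoding gene on the other strand. Gnb1, a G protein beta subunit gene, had 246 to 595 CPM in truncated SK3 base, against 1533 to 2113 CPM in control base, and 247 to 751 CPM in truncated SK3 apex, against 1715 to 2248 CPM in control apex. It fell by 2.13 under truncated SK3 (log2, SE 0.3, edgeR adjusted p = 0.000569) and by 1.10 under DN-HCN2 (SE 0.276, edgeR adjusted p = 0.0249). Both changes were measured against the same control libraries. The call under DN-HCN2 was lost without control apex 1, DN-HCN2 base 2 or DN-HCN2 base 3 (adjusted p up to 0.0549), without both of the last 2 (-0.82, adjusted p = 0.214) and without the oligodendrocyte-rich libraries (-1.13, adjusted p = 0.259). That under truncated SK3 was lost without the oligodendrocyte-rich libraries (-2.14, adjusted p = 0.0687). Gnai2, an inhibitory alpha subunit gene, rose under DN-HCN2 by 0.84 (SE 0.167, edgeR adjusted p = 0.00581), a call lost without the oligodendrocyte-rich libraries (0.86, adjusted p = 0.161). The list's medians were -0.26 beside 0.03 under DN-HCN2 and -0.27 beside 0.01 under truncated SK3. Of the 7 receptor kinase and arrestin genes none was called in any of the 11 comparisons, in which 0% to 6.05% of all genes were called, so that few or no calls among 7 genes is near the background. The most abundant were Adrbk1, with 38.2 ± 2.95 CPM in DN-HCN2 base and 42.02 ± 9.28 CPM in control base, and Arrb1, with 23.4 ± 9.85 and 30.5 ± 7.94 CPM.

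Across the 21 libraries, the tested genes most like Chrna4 in log2(CPM + 1) were Cacna1h (Pearson r = 0.76), which encodes a T-type calcium channel, Atg3 (r = 0.747) and Gdpd1 (r = 0.743). Those most like Chrnb2 were Stmn3 (r = 0.853), Tmem35 (r = 0.818) and Ccdc73 (r = 0.809). Chrna4 and Chrnb2 had r = 0.105 with each other. These correlations describe libraries that share groups and cell makeup, and the genes were picked as the highest of all tested.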

How the data were processed

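Counts per gene symbol were used as the authors deposited them, as whole numbers without normalization. The processing notes of the submitters name Trimmomatic, HISAT2 and DESeq2 without versions, with the builds GRCm38 and mm10; the counter and its annotation are not given in the sources used here. The 21 libraries were grouped by virus and region from the labels. The filterByExpr filter kept 14968 genes. After TMM scaling, edgeR 4.0.16 (R 4.3.3) fitted 1 coefficient for each of the 6 groups to all libraries by quasi-likelihood, with its robust option, and p-values were adjusted over all tested genes of a comparison by Benjamini-Hochberg, with calls at 0.05. The code was tested on simulated data. Lengths and positions are from GENCODE M21. The receptor genes, lists and tests were chosen with earlier results of these data known. Named genes are all 10 receptor genes, up to 4 called genes per list and comparison by smallest p, the 2 highest of a list without calls, and the 3 genes most like each receptor gene of at least 10 CPM; Chrna3, Chrna9, Chrnb1, Chrnd, Adar, Ache, Chat, Slc18a3 and Slc5a7 were named after their values were seen. Alternatives were RLE scaling, no filter, 10 CPM in 3 libraries, DESeq2 1.42.0, limma-voom (limma 3.58.1) with quality weights, a GC and length trend (14455 genes, 96.6%, had values), only the groups compared, replicate blocks, libraries left out 1 at a time and without macrophage-rich libraries. Leaving out libraries rich in hair cell or oligodendrocyte markers was chosen after seeing the data. The result of 1 further gene list is not reported here.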

Additional observations from a re-analysis of the deposited data

Results flagged for a closer look

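In 22 groups of 4 libraries with any count, 8 had a single highest library that stood far from its group. Chance flags about 1 in 20 groups of continuous values, a rate that does not apply to 6 of the 8, where the other 3 libraries were at 0 and any count is flagged. Control apex replicate 4 stood apart for Chrm1 at 1.6 CPM, for Chrm2 at 0.556 CPM and for Chrna5 at 0.139 CPM, from 23, 8 and 2 counts. Control base replicate 4 stood apart for Chrna6 at 3.38 CPM, for Chrnb3 at 1.62 CPM and for Chrm3 at 0.915 CPM, from 48, 23 and 13 counts. Control base replicate 3 stood apart for Chrna5 at 0.611 CPM, from 9 counts, and for Chrnb4 at 0.0679 CPM, from 1 count.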

How the results depend on the processing

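Of 39 gene differences recomputed, 36 kept their sign in every alternative run, and none of the 3 that did not was called. The DN-HCN2 interaction of Chrna4 was -0.26 without macrophage-rich libraries and -0.0738 to 0.601 over left-out libraries. Chrna4 under truncated SK3 was 0.50 without oligodendrocyte-rich libraries, where control base was replicate 2 alone. Chrnb2 in DN-HCN2 apex, near 0, was -0.0385 with the replicate block, -0.00228 with only the groups compared, -0.0901 with limma-voom, -0.00175, -0.0304 and -0.00203 without libraries rich in macrophage, hair cell or oligodendrocyte markers, and -0.126 to 0.145 over left-out libraries. The list medians were not recomputed. With union exon length, 6 of the 10 genes kept their rank; with RLE scaling or plain totals all 10 did. Receptor genes called under DN-HCN2 over both regions numbered 1; DESeq2 gave 2, and the 10 CPM filter (under which Chrna7 was not tested), limma-voom, the replicate block and the fits without libraries rich in hair cell or oligodendrocyte markers gave 0, with 0 to 1 over left-out libraries. Without the 2 macrophage-rich libraries the call passed from Chrna7 to Chrnb4. For base against apex over the 3 conditions the number was 2; the 10 CPM filter, limma-voom, the replicate block, the block within condition, and the fits without libraries rich in macrophage, hair cell or oligodendrocyte markers each gave 1, and left-out libraries 1 to 2. In control alone, base against apex gave 0 with edgeR, 2 with DESeq2, 1 with limma-voom and 1 with the block within condition. DESeq2 gave 1 for DN-HCN2 base and 1 for DN-HCN2 against truncated SK3, both 0 with edgeR.

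Correlations of deviations were -0.129 to 0.23 for 48 pairs with the same replicate number and -0.268 to 0.184 for 135 other pairs. The same-number pairs include pairs from different conditions, so these ranges cannot decide whether apex and base libraries of a number share animals. Over all genes, the 906 calls under DN-HCN2 became 1661 with DESeq2, 1483 with limma-voom, 602 with the replicate block, 571 with the GC and length trend removed (370 higher and 201 lower, against 366 and 540), 475, 214 and 56 without libraries rich in macrophage, hair cell or oligodendrocyte markers, and 520 to 1429 over left-out libraries. The 173 regional calls became 571, 79, 80 and 75 with DESeq2, limma-voom and the blocks, 41, 7 and 6 without those libraries, and 55 to 282 over left-out libraries. The 110 calls under truncated SK3 became 320, 305, 244 with only the groups compared, 69 with the block, 16 and 25 without the hair cell and oligodendrocyte libraries, and 61 to 114. The 320 calls in DN-HCN2 base ranged from 10 (without oligodendrocyte-rich libraries) to 1101 (DESeq2), the 30 in DN-HCN2 apex from 10 (without hair-cell-rich libraries) to 232 (DESeq2), the 98 between DN-HCN2 and truncated SK3 from 7 (only the groups compared) to 540 (DESeq2), the 38 in truncated SK3 apex from 6 (without hair-cell-rich libraries) to 156 (DESeq2), the 22 in truncated SK3 base from 5 (without oligodendrocyte-rich libraries) to 81 (DESeq2), the 1 of the DN-HCN2 interaction up to 123 (DESeq2) and the 0 between regions in control up to 83 (DESeq2). With the GC and length trend removed, 47.8% of calls were higher in DN-HCN2 apex, against 33.3%, and 53.7% in truncated SK3 apex, against 39.5%. The cause of these changes was not tested. For the 8 low genes, 0 counts allow up to 0.196 to 0.306 CPM per library. This bound takes reads as independent and leaves out the spread between libraries.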
